A study of Mus musculus with 6 samples.

Results

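Stefins and cystatins are inhibitors of papain-like cysteine proteases, and 7 of their genes were followed in mouse skin with and without ultraviolet B light (UVB): Stfa1, Stfa2, Stfa3 and Stfa2l1, Cstb, Cst3 and Cst6. The members are the probes that carry these gene names in the array files. Each gene had 1 probe with 1 spot, so that they make up 7 of the 55681 probes on the array (7 of 21727 genes named through RefSeq tables), and 7 of 7 lay well above background on all 6 arrays. Male C57BL/6 mice aged 6 to 8 weeks were shaved on the back. From 2 days later, 3 of them received 180 mJ/cm2 of UVB on the back under anesthesia, 3 times weekly over 2 weeks. The 3 control mice stayed in the dark. Whether the controls were anesthetized, and how long after the last session the skin was taken, are not given in the sources used here. RNA of each mouse went to 1 Agilent array with 1 colour, and no probe was saturated. Levels are given as scaled signals, that is, multiples of the 75th percentile of the signals on the same array, and differences as log2 of UVB over control with the standard error (SE) of the limma fit.

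Stefins are small cytosolic inhibitors that lack a signal peptide, whereas cystatin C (Cst3) and cystatin M/E (Cst6) are secreted. As a group they bind the active site of cathepsins such as cathepsins B, H, L and S. Humans have 1 stefin A gene, CSTA, whose product is built into the cornified envelope of the epidermis and whose loss causes a peeling skin disorder. In the mouse the gene has been copied many times in a cluster on chromosome 16, and several copies were described in neutrophils and bone marrow as well as in skin. Stefin B (Cstb) is made in nearly all cells. Cystatin M/E is made in the upper epidermis and the hair follicle, where it holds back cathepsin L and legumain, and mice that lack it have a defective skin barrier.

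Since the stefin A copies are alike in sequence, the probes were first set against each other. The probes are 60 bases long and their positions, as the files give them, are in mm9. The Stfa1 probe lies on the plus strand at chr16:36285398-36285457, and the Stfa2 probe on the minus strand at chr16:36404032-36404089. The Stfa3 probe lies on the minus strand at chr16:36450693-36450752. The Stfa2l1 probe lies on the plus strand and is placed over 1759 bases, at chr16:36160118-36161876, so that its 60 bases join exons on both sides of an intron. The probe sequences of Stfa2l1 and Stfa3 are shown because they decide which copies a signal can come from.
Stfa2l1: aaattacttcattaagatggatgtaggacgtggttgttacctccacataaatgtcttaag
Stfa3: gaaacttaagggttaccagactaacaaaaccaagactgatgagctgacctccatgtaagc

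The Stfa1 and Stfa2 probes sit at the same place near the end of their transcripts. Over the 58 bases in which they overlap, 40 were identical (69.0%). The 30-base stretch below holds the polyadenylation signal AATAAA of both, with the bases that differ in capitals. Counted from 1 at the 5′ end of the stretch, with the Stfa1 base written before the position, the differences are G3T, G6T, T15G, A17G and G23C.
Stfa1: caGtgGaaagagatTcAgccatGaataaag
Stfa2: caTtgTaaagagatGcGgccatCaataaag

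The Stfa3 probe overlaps the probes of 2 further copies more closely. It shared 30 of 35 overlapping bases (85.7%) with the Cstdc4 probe and 35 of 41 (85.4%) with the Cstdc5 probe. The Cstdc5 probe in turn shared 27 of 28 bases (96.4%) with the Csta2 probe. The stretch shown is the 30 bases of the Stfa3 and Cstdc4 overlap that are most alike, 28 of them identical, with the differences A6C and G8T in capitals.
Stfa3: aacttAaGggttaccagactaacaaaacca
Cstdc4: aacttCaTggttaccagactaacaaaacca

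Stfa2l1 was the member least separated by design. Its probe was the only one among the 7 members and the 6 other locus probes examined for which the files list transcripts of 2 RefSeq genes, Stfa2 and Stfa2l1. It also shared a run of 26 identical bases with a probe of the cluster that has no gene symbol. The Stfa3 and Cstdc4 probes shared a run of 22 bases. The Stfa1 and Stfa2 probes shared no run of 20 bases or more with any of the other 55680 probes, and their longest were 15 bases each. The Stfa1 probe nevertheless lists a transcript accession that the Cstdc6 probe lists too. Probes for Cstb, Cst3 and Cst6, with longest runs of 14, 15 and 14 bases, had none either. Probes were compared with probes only, and a match of a probe to the full transcripts of the other copies was not tested.

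All 4 stefin A members were higher after UVB, and none of the other 3 members passed the test. Stfa2 and Stfa2l1 rose most, 5.94-fold and 5.84-fold, Stfa3 rose 2.73-fold and Stfa1 1.98-fold. Of all 33767 tested probes, 11.2% passed at an adjusted p under 0.05, 5.07% as higher and 6.1% as lower. The members were thus called as higher in 4 of 7 cases against that background. In tissue RNA, more cells of a type and more RNA per cell cannot be told apart.

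The Stfa2 probe gave scaled signals of 19.1, 25.9 and 6.96 in controls 1 to 3 and of 75.6, 92.6 and 102.95 in UVB mice 1 to 3. The lowest UVB array stood above the highest control, and control 3 was far below the other controls. The log2 change was 2.57 ± 0.48 (SE; 3 mice per group; limma, adjusted p = 0.0245), with a 95% interval of 1.43 to 3.72.

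The Stfa2l1 probe read 5.68, 8.46 and 2.56 in controls and 25.3, 29.4 and 32.9 after UVB. The order of the 6 arrays was that of the Stfa2 probe, control 3 again being lowest. The log2 change was 2.55 ± 0.42 (SE; 3 mice per group; limma, adjusted p = 0.0181), with a 95% interval of 1.53 to 3.57. Because the files list Stfa2 transcripts for this probe too, its rise cannot be assigned to Stfa2l1 alone.

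The Stfa3 probe read 227, 283 and 350.2 in controls and 797, 841 and 686 after UVB. Here control 3 was the highest control, the reverse of its place for Stfa2, and the groups did not overlap. The log2 change was 1.45 ± 0.19 (SE; 3 mice per group; limma, adjusted p = 0.00976), with a 95% interval of 0.99 to 1.91. Stfa3 was the member whose call held with any 1 array left out (adjusted p 0.0150 to 0.0463).

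The Stfa1 probe read 393, 419 and 284 in controls and 677, 767 and 700.3 after UVB. Control 3 was lowest and the groups did not overlap. The log2 change was 0.99 ± 0.18 (SE; 3 mice per group; limma, adjusted p = 0.0233), with a 95% interval of 0.55 to 1.42. This call was the least secure: it held without control 3 (adjusted p = 0.0415) but not without any of the other 5 arrays, where adjusted p lay between 0.0530 and 0.0704. The Stfa2 call was lost without UVB 1, 2 or 3 or control 1 (adjusted p 0.0560 to 0.0712), and the Stfa2l1 call without UVB 1 or 2 or control 1 (0.0508 to 0.0608). The log2 change stayed above 0 for all 4 in each of these fits, between 0.81 and 2.96, and 4 of 7 members passed without control 3.

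**Figure D1:**
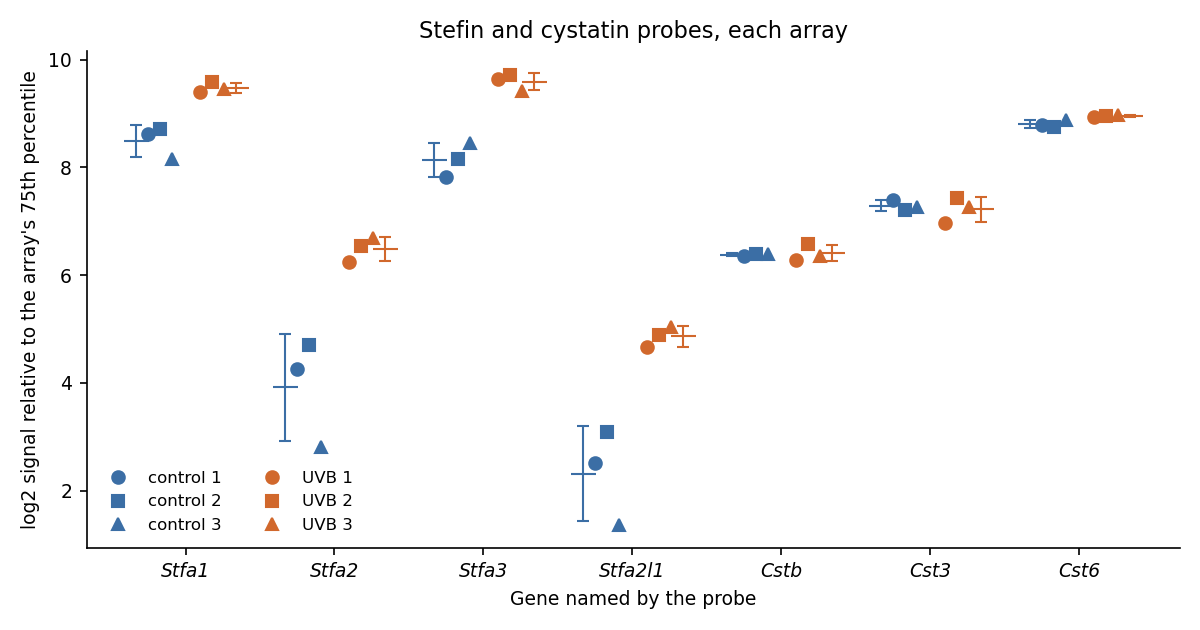
Log2 signal relative to the 75th percentile of the array (vertical axis) for the 7 stefin and cystatin probes, with controls in blue, UVB in orange and 1 symbol per mouse number; bars give the group mean and SD (n = 3). All UVB points of Stfa1, Stfa2, Stfa3 and Stfa2l1 lie above all their controls, and control 3 lies low for Stfa1, Stfa2 and Stfa2l1 but highest among controls for Stfa3.

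Whether 2 probes read the same transcripts was examined through their ratio within each array, over the 66 pairs of 12 probes of the cluster. A steady ratio is what a shared target would give, and genes that vary together give it too, which these arrays cannot tell apart. The log2 ratio of the Stfa2 and Stfa2l1 probes spanned 0.30 over the 6 arrays, the smallest span of the 66 pairs, and differed by -0.02 between the groups. The Stfa1 and Cstdc5 probes came next with a span of 0.34. The median span of all pairs was 1.88 and the largest 3.46.

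The other stefin A members did not keep such ratios. The log2 ratio of Stfa1 to Stfa3 spanned 1.09, that of Stfa1 to Stfa2 spanned 2.59 and that of Stfa2 to Stfa3 spanned 2.92. The probes of Stfa1, Stfa2 and Stfa3 thus differed from each other over the 6 mice by more than those of Stfa2 and Stfa2l1 did. For Stfa2l1 and Csta3, whose probes share 30 of 38 bases (78.9%), the span was 2.30. For Csta2 and Cstdc5, whose probes share 27 of 28 bases, it was 1.90. It was 1.68 for Stfa3 and Cstdc4 and 1.09 for Stfa3 and Cstdc5. For Stfa2l1 and the probe without a symbol that shares a run of 26 bases with it, the span was 1.11. The Stfa1 and Cstdc5 probes, with the second smallest span, matched at 13 of 26 bases in their best overlap. A link between probe likeness and span was not tested.

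**Figure D2:**
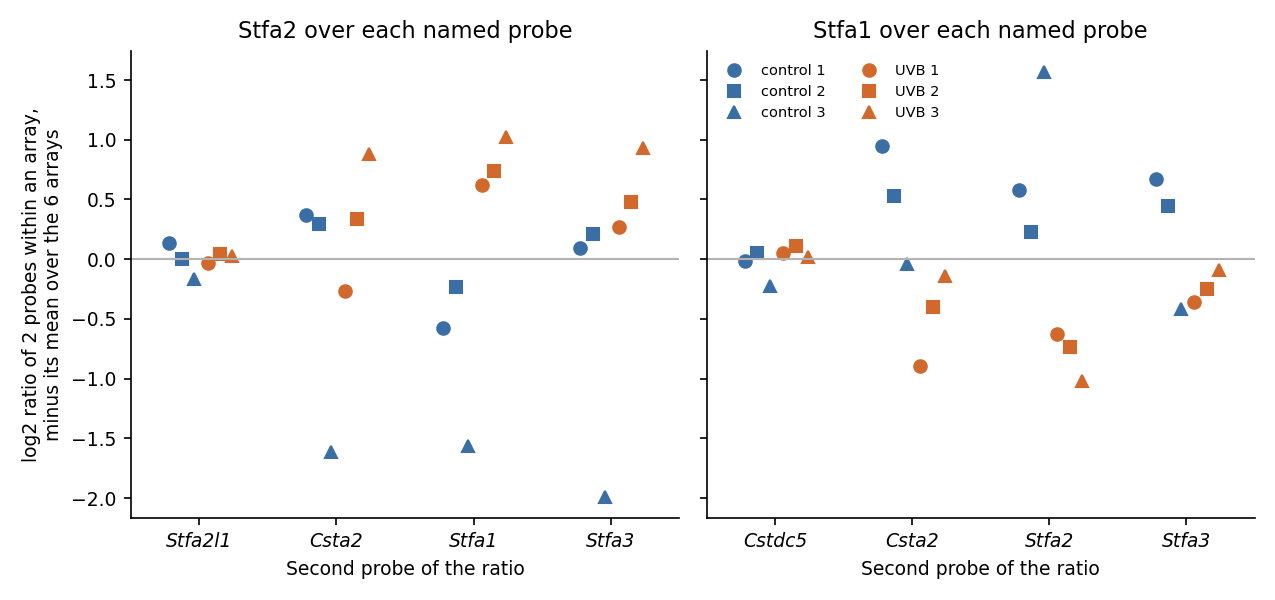
Log2 ratio of 2 probes within an array, minus its mean over the 6 arrays (vertical axis), for Stfa2 over 4 other probes on the left and Stfa1 over 4 other probes on the right, with 1 point per mouse. The ratios of Stfa2 to Stfa2l1 (span 0.30) and of Stfa1 to Cstdc5 (span 0.34) stay near 0, whereas those of Stfa2 to Stfa1 and to Stfa3 spread by 2.59 and 2.92, with control 3 at the end of each.

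Most of the other named stefin A copies were higher as well. Over all 11 named probes of the cluster, 9 passed as higher, 0 passed as lower and 2 did not pass. Of all tested probes, 5.07% passed as higher and 6.1% as lower. In 9 of the 11 the groups did not overlap (37.2% of all tested probes). The log2 changes of the 11 ran from 0.80 to 2.57 with a median of 1.45, against -0.03 for all tested probes. Without UVB 1 the count was 3 and without UVB 2 it was 5. The count over the cluster was added after the data were seen, and the probes are not independent of each other, since several share sequence or listed transcripts.

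Cstdc6 had the smallest p of the cluster: its probe read 0.127, 0.165 and 0.131 in controls and 0.898, 0.825 and 0.603 after UVB, a log2 change of 2.45 ± 0.20 (SE; 3 mice per group; limma, adjusted p = 0.00311). Cstdc4 rose by 2.12 ± 0.30 (adjusted p = 0.0124) and Csta2 by 1.94 ± 0.24 (0.00775) on the log2 scale. The Csta2 probe has 10 spots per array, and the SD of their log2 signals on 1 array, a technical spread only, was 0.05 to 0.12. Csta1, named after the human stefin A gene in the array files, rose by 1.42 ± 0.29 (0.0323). The Csta1 call was lost without UVB 1, 2 or 3 or control 2 (adjusted p 0.0638 to 0.103) and with no filter on dim probes (0.0538). The Cstdc4 call was lost without UVB 1 (0.0530). In the fit with replicate number as a block, Csta1 (0.0957), Csta2 (0.0545) and Cstdc4 (0.0603) did not pass.

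Cstdc5, whose probe lists a transcript that the Cstdc6 probe lists too, read 494, 504 and 414 in controls and 811, 883 and 860.1 after UVB. Its log2 change of 0.86 ± 0.13 (SE; 3 mice per group; limma, adjusted p = 0.0150) was the smallest that passed in the cluster. The call was lost without UVB 1 (0.0512) or control 2 (0.0561) and in the fit with replicate number as a block (0.0740). Csta3 read 10.1, 12.1 and 2.04 in controls and 19.0, 10.6 and 16.4 after UVB, so that the groups overlapped and its log2 difference of 1.25 ± 0.68 did not pass (adjusted p = 0.272). Without control 3 that difference was 0.43. Gm4758, whose probe lists a transcript of Cstdc3, did not pass either, at 0.80 ± 0.46 (0.295). A probe of the cluster without a symbol rose by 2.28 ± 0.22 (0.00437), and it is the one that shares 26 bases with the Stfa2l1 probe. Another probe inside the cluster without a stefin gene name did not pass, at 1.03 ± 0.46 (0.191).

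The genes beside the cluster did not pass. On the side of Csta1, Ccdc58 differed by -0.02 ± 0.14 (SE; 3 mice per group; limma, adjusted p = 0.947), Fam162a by 0.37 ± 0.14 (0.128), Wdr5b by -0.28 ± 0.15 (0.268) and Kpna1 by -0.11 ± 0.14 (0.651) on the log2 scale. Their intervals all lay below the estimated log2 change of Stfa1. That of Fam162a, 0.04 to 0.70, still overlapped the Stfa1 interval of 0.55 to 1.42. Fam162a had an unadjusted p of 0.032 in limma, and its groups did not overlap, as in 37.2% of all tested probes. Beyond Stfa3, the probe of Casr, the calcium-sensing receptor gene, was too dim to test.

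**Figure D3:**
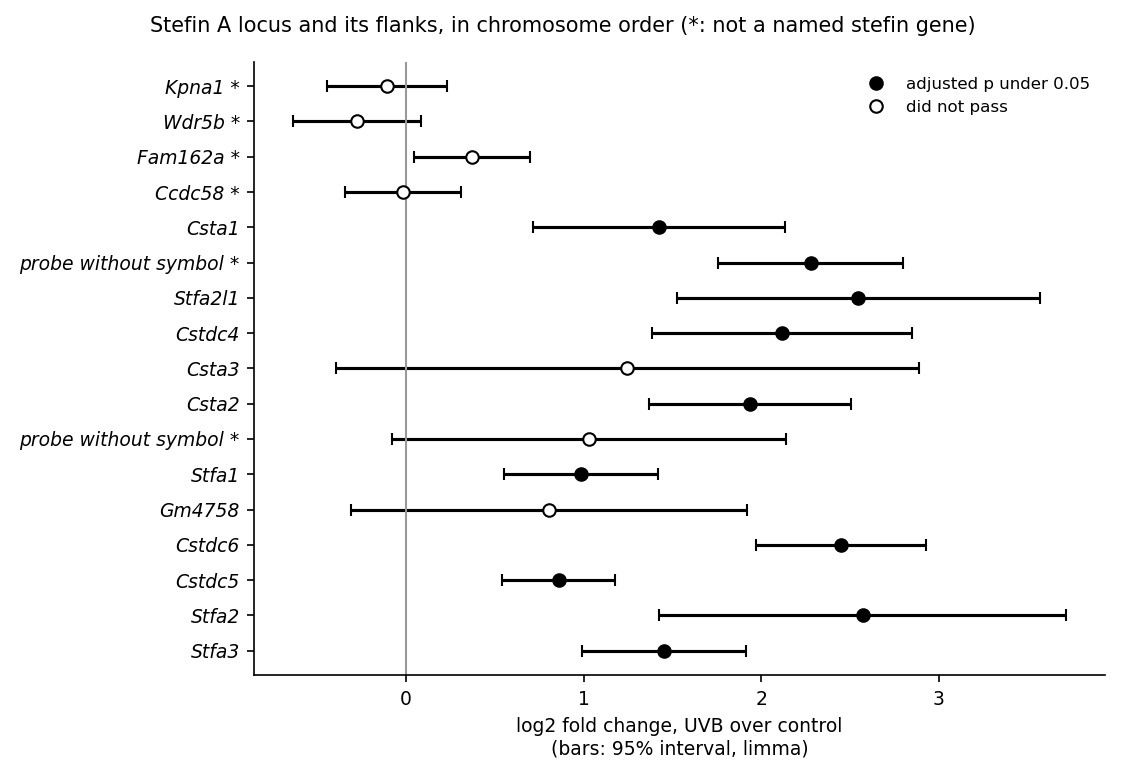
Log2 fold change of UVB over control with its 95% interval (horizontal axis) for the probes of the stefin A cluster on chromosome 16 and the genes beside it, in chromosome order; filled points passed at an adjusted p under 0.05 and stars mark probes without a stefin gene name. The 11 named stefin A probes lie between 0.80 and 2.57, and the 4 neighbours above them between -0.28 and 0.37.

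For the 4 stefin A members, which all rose but did not all keep steady ratios, the 250 bases before their transcription starts are shown, from RefSeq on GRCm38.p6. They are chr16:36276898-36277147 on the plus strand for Stfa1, chr16:36408364-36408613 on the minus strand for Stfa2, chr16:36455393-36455642 on the minus strand for Stfa3 and chr16:36156561-36156810 on the plus strand for Stfa2l1. Capitals mark the longest run that all 4 share.
Stfa1: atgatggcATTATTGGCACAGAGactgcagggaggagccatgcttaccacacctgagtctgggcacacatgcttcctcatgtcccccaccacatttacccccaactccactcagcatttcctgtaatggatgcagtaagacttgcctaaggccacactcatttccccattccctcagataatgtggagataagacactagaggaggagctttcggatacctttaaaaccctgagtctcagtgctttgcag
Stfa2: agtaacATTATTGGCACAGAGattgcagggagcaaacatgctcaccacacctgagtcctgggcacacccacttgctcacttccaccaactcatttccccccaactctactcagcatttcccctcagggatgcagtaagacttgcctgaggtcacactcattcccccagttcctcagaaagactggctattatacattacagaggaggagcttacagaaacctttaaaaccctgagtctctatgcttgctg
Stfa3: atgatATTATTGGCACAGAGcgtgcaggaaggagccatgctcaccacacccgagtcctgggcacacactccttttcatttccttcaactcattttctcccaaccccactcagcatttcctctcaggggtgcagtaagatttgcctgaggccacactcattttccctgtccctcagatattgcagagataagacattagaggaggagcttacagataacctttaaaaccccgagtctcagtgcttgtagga
Stfa2l1: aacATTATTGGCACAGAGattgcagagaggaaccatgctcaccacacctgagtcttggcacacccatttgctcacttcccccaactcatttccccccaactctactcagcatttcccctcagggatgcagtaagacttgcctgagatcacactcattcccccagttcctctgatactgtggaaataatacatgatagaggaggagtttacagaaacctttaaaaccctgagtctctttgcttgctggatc

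The shared run, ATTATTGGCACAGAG, is 15 bases long and starts 242 to 247 bases before the start of each gene. On either strand it was found in 5 of 32851 promoters (0.0152%), those of the 4 members and of Cstdc5. The run was chosen from the promoters of the 4 members, so that 4 of the 5 matches were fixed by that choice. The share is therefore not a test of the run. The promoters of Stfa2 and Stfa2l1 were identical at 92.3% of aligned bases, and the other pairs at 81.8% to 85.0%. The pair of promoters most alike belongs to the members whose probes had the smallest span of ratios. The Stfa2l1 probe lists Stfa2 transcripts too, and a link between promoter likeness and the ratios was not tested. Searched on both strands, TATAAA was in none of the 4 (12.4% of all promoters hold it) and neither was the AP-1 motif TGANTCA (6.75%). The C/EBP motif TTGCNNAA was in 1, that of Stfa1 (9.56%). These are matches of letters in a 250-base window, and an absent match shows nothing about the factor.

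The 3 members outside the cluster did not pass. The probes of Cstb, Cst3 and Cst6 lie at chr10:77890058-77890117 on the plus strand, chr2:148697681-148697740 on the minus strand and chr19:5347982-5348041 on the minus strand, in mm9. The sequence is given whole for Cstb and as the first 30 bases for the other two, since none of the 3 has a close copy among the other probes.
Cstb: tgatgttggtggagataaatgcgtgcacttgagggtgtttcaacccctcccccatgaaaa
Cst3: aaaggcacacactccctgacaaaattcagc
Cst6: ttgcaactttgagctccttgaagtcccctg

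Cstb, the stefin found in nearly all cells, read 81.3, 84.3 and 83.4 in controls and 77.8, 95.2 and 82.3 after UVB. The controls lay within the UVB values. The log2 difference was 0.03 ± 0.13 (SE; 3 mice per group; limma, adjusted p = 0.897), and its 95% interval of -0.28 to 0.34 leaves out changes of the size seen for any of the 4 stefin A members.

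Cst3, the secreted cystatin C, read 168, 147 and 154 in controls and 126, 173 and 154 after UVB, with overlapping groups. The log2 difference was -0.06 ± 0.16 (SE; 3 mice per group; limma, adjusted p = 0.824), with an interval of -0.44 to 0.32.

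Cst6, the epidermal cystatin M/E, read 443, 428 and 471 in controls and 488, 497 and 502 after UVB. All UVB values lay just above all controls. The log2 difference of 0.15 ± 0.11 (SE; 3 mice per group; limma, adjusted p = 0.424, interval -0.12 to 0.42) did not pass, and it became -0.03 with quantile normalization and in the authors' deposited table.

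Among 27 names of further stefins, cystatins and cystatin-like proteins, 19 were on the array and 13 were tested. Of these, 7 were higher, 1 was lower and 5 did not pass, where 11.6% of 24457 genes passed by their brightest probe, 5.17% as higher and 6.4% as lower. In 8 of the 13 the groups did not overlap, as in 38.5% of all genes. The median log2 difference of the 13 was 1.25, against -0.04 for all genes, and 5 of the 7 that rose are stefin A copies of the cluster given above. The other 2 were Fetub and Ahsg, which encode fetuin B and fetuin A, cystatin-like proteins of plasma. Fetub read 0.286, 0.304 and 0.349 in controls and 2.85, 2.70 and 1.81 after UVB, a log2 change of 2.95 ± 0.21 (SE; 3 mice per group; limma, adjusted p = 0.0024). Ahsg, at 1.42 ± 0.17 (0.0075), was well above background on 1 of 3 control arrays, so that it was tested only because of the UVB arrays. Without it, when all arrays had to be above background, 7 relatives passed in place of 8, and 4 passed without UVB 1 and 5 without control 2. Cst7, which encodes cystatin F of leukocytes, was the relative that fell: it read 0.617, 0.457 and 0.351 in controls and 0.143, 0.169 and 0.145 after UVB, a log2 change of -1.61 ± 0.22 (0.0113). The Cst7 call was lost without UVB 1 (0.0501) or control 2 (0.0505) and in the fit with replicate number as a block (0.0509).

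Proteases of the kinds that stefins or cystatins inhibit were given the same test. Of 11 cathepsin and legumain genes tested, 0 passed in limma, 5 had an unadjusted p under 0.05 (3 above 0 and 2 below), and other processing called 0 to 3. Among all 24457 genes, 11.6% passed by their brightest probe. The median log2 difference of the 11 was 0.08. Ctsh, the gene of cathepsin H, read 39.5, 45.4 and 50.8 in controls and 61.1, 68.5 and 66.5 after UVB, at 0.54 ± 0.14 (SE; 3 mice per group; limma, adjusted p = 0.0593). Ctsk stood at 0.91 ± 0.26 (0.0753) and Ctsl, the gene of cathepsin L, at 0.63 ± 0.30 (0.213). Ctss, the cathepsin S of antigen-presenting cells, stood at -0.61 ± 0.23 (0.137) and Lgmn, the gene of legumain, at 0.08 ± 0.17 (0.797).

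Genes of the route in which cystatin M/E acts, from cathepsins and legumain to transglutaminases and the cornified envelope, were counted as well. Of 11 tested, 3 were higher, 0 were lower and 8 did not pass, where 5.17% of all genes passed as higher and 6.4% as lower. In limma 5 had an unadjusted p under 0.05, all 11 lay above 0 and the median log2 difference was 0.45. The 3 that passed encode structural proteins of the cornified layer. Ivl, involucrin, read 10.07, 10.04 and 12.53 in controls and 34.0, 36.0 and 29.3 after UVB, a log2 change of 1.61 ± 0.15 (SE; 3 mice per group; limma, adjusted p = 0.0044). Flg, filaggrin, rose by 3.70 ± 0.75 (0.0309), with controls spread from 16.1 to 145. The Flg call was lost in the fit with replicate number as a block and without UVB 1, 2 or 3 or control 1 or 2. In each of these fits Ivl alone of the 11 passed. Lor, loricrin, rose by 0.76 ± 0.15 (0.0308), a call lost with any 1 array left out (adjusted p 0.0505 to 0.118) and in 5 of the 9 other settings, among them quantile normalization, where its log2 change was 0.46 (adjusted p = 0.112). Tgm1 stood at 0.88 ± 0.27 (0.0894). The probes of Tgm3 disagreed: the brighter stood at 0.09 ± 0.17 (0.775), while the other rose by 1.601 ± 0.249 (0.0156).

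**Figure D4:**
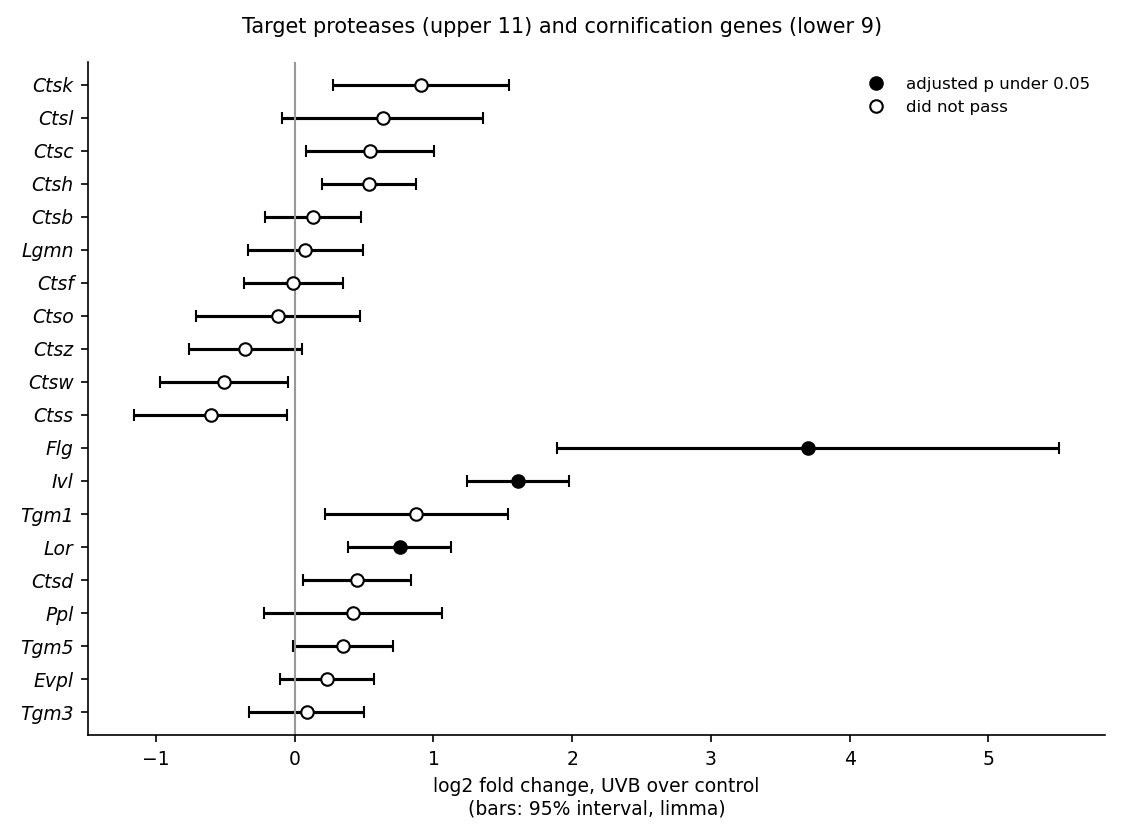
Log2 fold change of UVB over control with its 95% interval (horizontal axis) for the brightest probe of 11 target proteases (upper rows) and of 9 cornification genes (lower rows); filled points passed at an adjusted p under 0.05. The proteases lie between -0.61 and 0.91 with 0 called, and Ivl, Flg and Lor are the 3 called.

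Markers of the cell types in skin were set beside these results. For each marker list, the shares to compare with are those of all 24457 genes. By their brightest probe, 5.17% of them passed as higher and 6.4% as lower. The label of skin was borne out by keratinocyte markers, 8 of 8 tested, of which 3 (Ivl, Lor, Flg) were higher. Their summed scaled signal was 2875 to 3445 in controls and 4360 to 5120 after UVB, and these ranges did not overlap. Of 7 hair follicle markers 6 were higher, and the sum went from 44.9 to 55.9 in controls up to 292 to 1024 after UVB. The median log2 difference of the 7 was 8.48. The 1 that did not pass lay at -0.41, with an unadjusted p under 0.05 in limma. Of the 6 that were higher, Krt33b was well above background on 0 and Krt25 on 1 of the 3 control arrays. Both were thus tested only because of the UVB arrays. Fibroblast markers were higher in 3 of 5 (sums of 4.80 to 11.3 and 16.4 to 24.4). Of 2 adipocyte genes tested, Fabp4 rose by 4.80 ± 0.77 (adjusted p = 0.0166 in limma), and the sums were 0.2205 to 0.893 and 5.68 to 27.97. Of 3 skeletal muscle genes 0 passed in limma, 1 had an unadjusted p under 0.05 and 3 lay below 0, with sums of 0.330 to 1.69 and 0.1698 to 0.591. Of 2 mast cell genes 0 passed in limma and 0 had an unadjusted p under 0.05. The part of these lists in the stefin A rise was not tested.

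Markers of neutrophils, in which stefin A copies were also described, were tested for 6 of 11 genes on the array. In limma 0 passed, 3 had an unadjusted p under 0.05, 6 of 6 lay above 0 and their median was 0.58. Their sum was 127 to 162 in controls and 194 to 281 after UVB. The granule genes Mmp8, Ltf, Retnlg and Ngp were not well above background on any array. S100a8 stood at 1.35 ± 0.40 (SE; 3 mice per group; limma, adjusted p = 0.0806) and S100a9 at 1.22 ± 0.43 (0.120), and keratinocytes make both. Of 5 macrophage genes tested, 2 were lower, Adgre1 at -1.88 and Csf1r at -1.52, and 1 was higher, Lyz2 at 1.47, which was well above background on 1 of 3 control arrays and was tested only because of the UVB arrays. The sum went from 18.3 to 20.2 down to 5.78 to 8.56.

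The genes whose pattern over the 6 arrays was most like that of each member were ranked by the root mean square difference of mean-centred log2 values, over 15770 genes. For Stfa3 these were Galnt6, Klk8 and Hk2 (0.061, 0.083 and 0.101). Klk8 encodes a kallikrein protease of the epidermis. For Stfa1 they were Itgb8, Smtnl2 and Ugt2b37 (0.074, 0.087 and 0.091). Stfa2 and Stfa2l1 shared Tff1 (0.144 and 0.136) and Vcam1 (0.255 and 0.215), the third being Fgf9 for Stfa2 (0.271) and 2610528A11Rik for Stfa2l1 (0.225). For Cstb, Cst3 and Cst6 the nearest genes, Gpalpp1, Lztfl1 and Rnft1, lay at 0.024, 0.038 and 0.022, a closeness that any gene with little spread between arrays can reach.

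Across the processing alternatives that kept all 6 arrays, 9 in number, the log2 change of Stfa1 lay between 0.79 and 0.99, that of Stfa3 between 1.24 and 1.45, that of Stfa2 between 2.47 and 2.58 and that of Stfa2l1 between 2.44 and 2.59. All 4 passed in 8 of the 9. The exception was the fit with replicate number as a block, in which none of the 4 did.

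**Figure D5:**
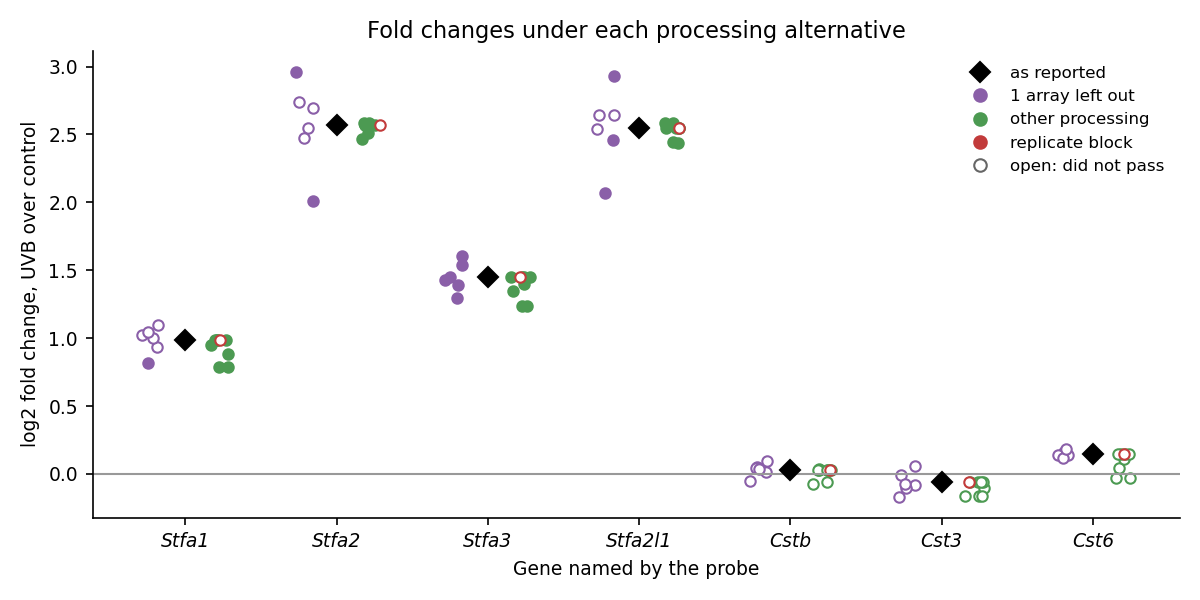
Log2 fold change of UVB over control (vertical axis) for each member as reported (black), with 1 array left out (purple), under other processing (green) and with the replicate block (red); open points did not pass. The 4 stefin A members stay between 0.79 and 2.96, and Cstb, Cst3 and Cst6 stay between -0.17 and 0.19.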

How the data were processed

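Per the labels, Cy3-labelled RNA from the skin of 6 mice was hybridised to 1-colour Agilent arrays. The deposited intensity of each spot is, per the file headers, background-subtracted and detrended output of Agilent Feature Extraction (10.7.1.1 per the submitters' processing notes). The deposited table of log2 values had columns alike within 0.00177 when sorted and a median of 4.95 each. Its scale and centring are known only from that comparison (r of 0.99866 to 0.99997 against the same array), and it served as an alternative.

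From the deposited intensity, log2 values were centred by subtracting the 75th percentile of non-control spots (302 to 519) per array. Control spots and outlier spots (135 to 274 per array) were left out and spots of a probe averaged. Of 62976 spots per array, 54.9% to 63.3% of the non-control ones were well above background. Probes well above background on at least 3 arrays were tested, 33767 of 55681. UVB and control, 3 mice each, grouped by sample title, were compared with limma 3.58.1 in R 4.3.3 (lmFit, eBayes, two-sided, Benjamini-Hochberg over all tested probes). The number of arrays limits precision. In simulated data with 200 planted changes, 33% of 2-fold and 69% of 4-fold changes were recovered, with 7 false calls among 33724 probes. In the real data 3772 probes passed, and the Benjamini-Hochberg cutoff depends on how many probes change. The simulated shares therefore do not give the recovery in the real data.

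Probes were named through a RefSeq accession (26582), a symbol (2602) or the file's own name (26497), with a table of GRCm38.p6 used for names and promoters. A gene list is counted by the brightest tested probe of each gene. The text names every member, every named stefin A copy, the 2 genes of smallest p per direction among those that passed in each list, and the 3 genes most like each member. Further list and marker genes are examples picked with their values in view. The members, lists and tests were chosen with earlier results of these data known.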

Additional observations from a re-analysis of the deposited data

How the results depend on the processing

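With 3 arrays per group, calls depended on single arrays more than directions did. Of all tested probes 3772 passed, 6811 with normexp background correction, 2259 with no filter on dim probes and 799 with the replicate block, and 943 to 2272 with 1 array left out. Of the 7 members, 4 passed as reported, 0 with the block and 1 to 4 with 1 array left out. Of the named probes of the cluster, a count added after seeing the data, 9 passed as reported, 1 with the block and 3 to 9 with 1 array left out, the fewest without UVB 1. Of the relatives 8 passed, 3 with the block and 4 to 8 with 1 array left out. Of the target proteases 0 passed, 1 with quantile normalization, 1 in the deposited table, 1 when a probe had to be well above background on all arrays, 2 with trend and robust eBayes, 3 with normexp and 0 to 1 with 1 array left out. Of the cystatin M/E route 3 passed, 1 with the block and 1 to 2 with 1 array left out. Differences that changed sign were those of Cst6 (-0.028 with quantile normalization and -0.029 in the deposited table), Cstb (-0.071 with median scaling, -0.057 with normexp and -0.052 to 0.093 with 1 array left out) and Cst3 (-0.167 to 0.062 with 1 array left out), and none of these passed in any setting. Under the replicate block adjusted p was 0.0732 for Stfa1, 0.0745 for Stfa2, 0.0588 for Stfa3 and 0.0649 for Stfa2l1. The block uses up residual degrees of freedom, and the labels do not say whether the numbers pair the mice. Same-numbered arrays correlated in their deviations at -0.11, -0.27 and -0.09, and the other pairs at -0.03 to 0.14. With 3 mice per group, these correlations cannot settle whether the mice were paired. The cause of the changes between settings was not tested. A slide block was not run, since the 6 arrays shared a slide and a scan time.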
